A study of Mus musculus with 8 samples.

Results

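Transcripts of 9 genes of the integrated stress response, Gdf15, Fgf21, Atf4, Atf5, Atf3, Ddit3, Trib3, Chac1 and Asns, were examined in mouse brown adipose tissue after deletion of the histone demethylase Lsd1. They were chosen by symbol from 23372 genes counted, and where a symbol had several transcript rows the row with the highest total stood for the gene. The KO mice carried floxed Lsd1 alleles and a Ucp1-Cre transgene. The ctrl mice carried floxed Lsd1 alleles alone, so that loss of Lsd1 and presence of Cre cannot be told apart in this design. All mice were C57BL/6 N and 10 weeks old, and the labels name no treatment. The Ucp1 promoter is active in brown adipocytes, and cells of the depot in which it is silent keep the gene. There were 4 KO libraries (512, 513, 515 and 516) and 4 ctrl libraries (511, 514, 517 and 518). The labels do not say whether each library is a separate animal, so p-values measure only the spread between these libraries, which may be technical.

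The integrated stress response begins when a kinase phosphorylates the initiation factor eIF2alpha, which slows most translation while the ATF4 message is translated more. ATF4, a transcription factor of the basic leucine zipper (bZIP) family, then raises genes of amino acid supply and of cell death, often through a C/EBP-ATF element in their promoters. GDF15 and FGF21 are hormones that stressed tissues secrete under this programme. FGF21 is also a thermogenic signal of brown fat, and GDF15 acts on feeding through a receptor in the hindbrain. ATF4 is set largely at translation, so that its mRNA level is only a part of its regulation, and no protein was measured here.

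The C/EBP-ATF element is the sequence that several of these genes share and through which ATF4 reaches them. It was searched as TGATGNAA on both strands of the RefSeq promoter windows of GRCm38.p6, which run from 250 bases before to 50 bases after a transcript start. All 9 genes had a window, and 5 of 9 (55.6%) held a match, beside 3.97% of all 32851 windows and 4.51% of genes with a window. The stricter form TGATGCAA, which lies within TGATGNAA, was found in 3 of 9 (33.3%) and in 0.895% of all windows. The cAMP response element TGACGTCA, a site that ATF3 and CREB can bind, was found in 0 of 9 and in 1.79% of all windows. The 4 matches that lie upstream of a start are printed below on the strand of the gene, with the element in capitals and 30 bases before it, to show that it is the same 8 letters in Chac1, Fgf21 and Atf3 and a variant in Asns.

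Chac1, chr2:119351019-119351086, plus strand: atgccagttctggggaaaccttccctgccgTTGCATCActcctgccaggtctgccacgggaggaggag
Fgf21, chr7:45615592-45615659, minus strand: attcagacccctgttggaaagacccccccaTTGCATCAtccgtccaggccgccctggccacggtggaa
Atf3, chr1:191183406-191183473, minus strand: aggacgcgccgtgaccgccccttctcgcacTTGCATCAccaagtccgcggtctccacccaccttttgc
Asns, chr6:7693210-7693262, minus strand: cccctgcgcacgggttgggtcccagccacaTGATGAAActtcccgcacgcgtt

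In Chac1, Fgf21 and Atf3 the capitals read TTGCATCA, which is TGATGCAA on the other strand, and they begin 193, 139 and 110 bases before the start. In Asns the match TGATGAAA is on the strand of the gene and begins 23 bases before the start of the window's transcript, which itself lies 27 bases upstream of the transcript that was counted. Trib3 held a match that begins 14 bases after its start. No match was found in the windows of Gdf15, Atf4, Atf5 and Ddit3. The Gdf15 windows start from sites 460 and 821 bases upstream of the counted transcript. The bases just before its counted start were therefore not searched, and Gdf15 among the genes without a match is limited by this. A match is a description of the letters, and no binding was measured.

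**Figure D1:**
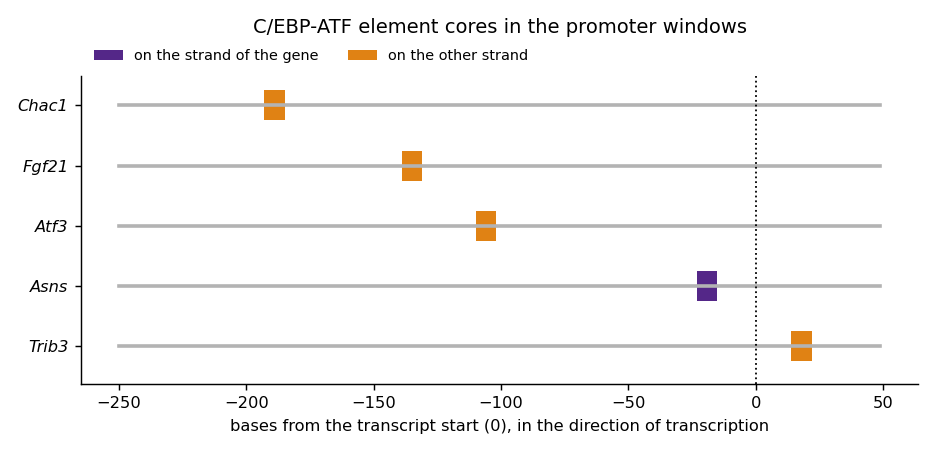
Position of the C/EBP-ATF element core in the promoter windows of the 5 genes that held it. The x axis gives bases from the transcript start, grey lines are the windows, and coloured boxes are matches on either strand. The match begins 193 bases before the start in Chac1, 139 in Fgf21, 110 in Atf3 and 23 in Asns, and 14 bases after the start in Trib3.

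The libraries held 23683936 to 28570627 counts in genes. Kdm1a, the gene of LSD1, had 13.96, 12.22, 13.18 and 13.01 CPM (counts per library total after scaling by TMM factors) in KO 512, 513, 515 and 516, against 35.3, 36.0, 33.3 and 36.9 CPM in ctrl 511, 514, 517 and 518 (log2 fold change -1.43, SE 0.0743, edgeR adjusted p = 2.66e-05). Ucp1, the uncoupling protein that marks brown adipocytes, averaged 1377 ± 161 CPM in KO and 4481 ± 1200 CPM in ctrl libraries (SD, n = 4 each). Of 14178 genes tested, 34.4% were called at an adjusted p under 0.05 by edgeR's quasi-likelihood test, 15.4% higher and 18.9% lower in KO, and in 35.5% the libraries of both groups did not overlap. The median log2 fold change of all tested genes was -0.01. Under library sizes alone in place of TMM factors the median was shifted by 0.199 and the calls were 4077 higher and 930 lower, and under upper quartile factors it was shifted by 0.103 with 2915 higher and 1625 lower, against 2189 higher and 2682 lower under TMM. The summed level of 12 skeletal muscle markers was 6735 to 14569 CPM in KO and 246 to 5745 CPM in ctrl libraries, with the lowest in ctrl 514, and 1 of the 12 was called, as higher. The summed level of 10 macrophage markers was 204 to 311 CPM in KO and 114 to 215 CPM in ctrl libraries, with 4 of the 10 higher. The summed level of 10 brown adipocyte markers was 12629 to 14271 CPM in KO and 18725 to 24842 CPM in ctrl libraries, with 5 of the 10 lower. That fall was carried largely by Ucp1 and by Fabp4, which averaged 6024 CPM in KO and 10003 CPM in ctrl libraries. Cidea, Plin1, Adipoq, Dio2 and Ppara were not called (log2 fold changes -0.26, -0.21, -0.17, 0.17 and 0.42). No marker of these lists was at 0 in all libraries. In bulk tissue, fewer cells of a type and less RNA per cell cannot be told apart.

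Of the 9 stress genes, all of which passed the filter on low counts, 2 rose (Gdf15 and Chac1), 1 fell (Atf5) and 6 were not called. The 3 calls stand beside 34.4% called among all genes tested, so that their share is near the background. Their effects differed in size. The Gdf15 transcript was 7.93-fold higher in KO tissue, Chac1 2.75-fold higher and Atf5 1.57-fold lower. For Atf4 and its target Asns the 95% intervals of the fold were 0.797 to 1.30 and 0.812 to 1.07. The groups did not overlap for 2 of 9 genes, Gdf15 and Atf5, beside 35.5% of all genes.

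**Figure D2:**
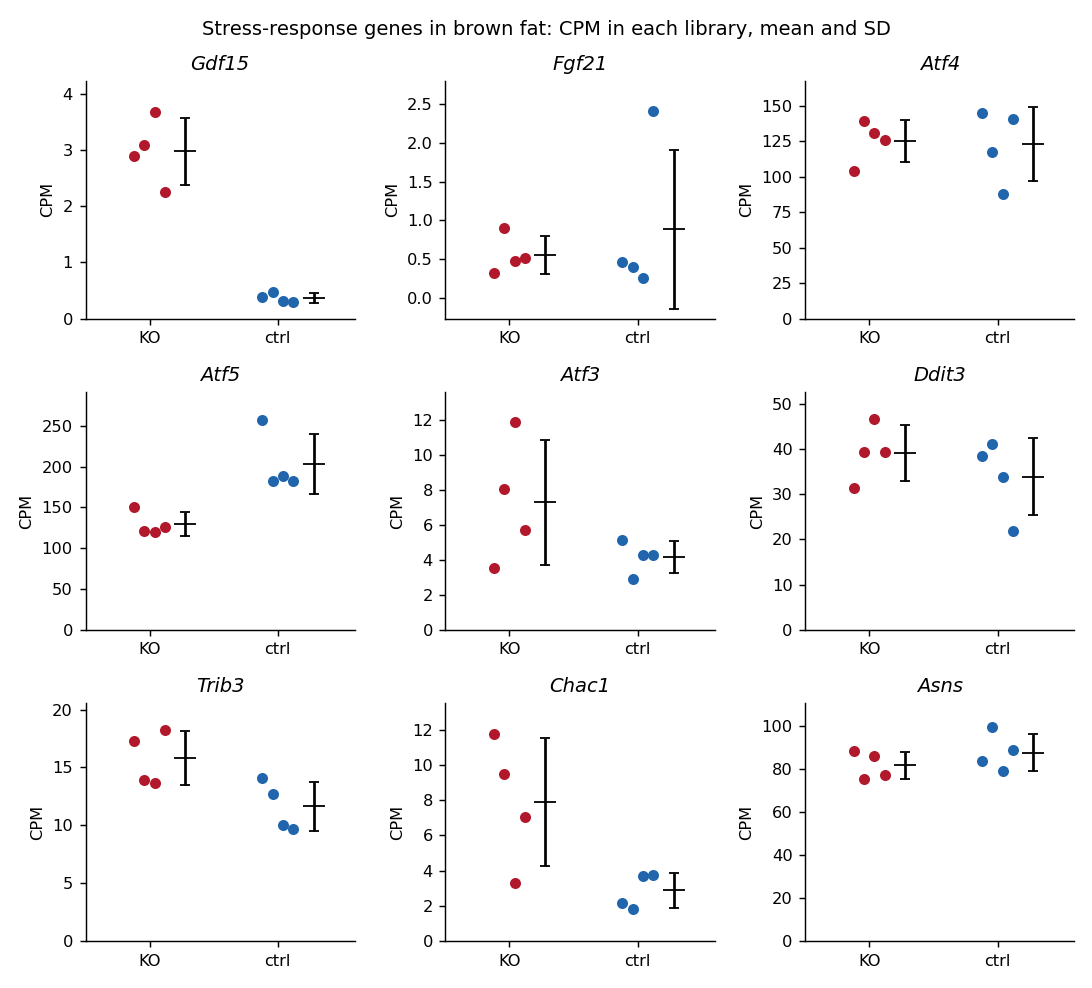
CPM (TMM-scaled) of the 9 genes in each library, 4 KO libraries at left in red and 4 ctrl libraries at right in blue in each panel. The black marks are the mean and SD over 4 libraries, and the SD of Fgf21 in ctrl reaches below 0. Gdf15 lies at 2.24 to 3.67 CPM in KO and 0.302 to 0.479 CPM in ctrl libraries, and the high ctrl point of Fgf21 is library 518 at 2.41 CPM.

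GDF15, the growth and differentiation factor that signals through GFRAL, is encoded at chr8:70629394-70631635 on the minus strand of mm10. Gdf15 had 2.89, 3.08, 3.67 and 2.24 CPM in KO 512, 513, 515 and 516, against 0.390, 0.479, 0.308 and 0.302 CPM in ctrl 511, 514, 517 and 518. Every KO library was above every ctrl library. The counts behind these levels were 60 to 93 in KO and 7 to 12 in ctrl libraries, so that the ctrl level rests on few reads. The mean was 2.97 ± 0.588 CPM in KO and 0.370 ± 0.0832 CPM in ctrl libraries (SD, n = 4 each), a log2 fold change of 2.99 (SE 0.244, 95% interval 2.44 to 3.54, adjusted p = 0.000138 in edgeR). As a fold this is 7.93, with an interval of 5.42 to 11.6. Of all genes tested, 47 (0.332%) had a log2 fold change at or above it. With the summed skeletal muscle markers as a covariate the log2 fold change was 3.22 (adjusted p = 0.00112), and with the summed macrophage markers it was 3.35 (adjusted p = 0.00157). The muscle sums of the groups did not overlap, so the muscle covariate cannot be told apart from KO. In the authors' deposited table its fold was 7.66 with an FDR of 1.55e-18.

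Fgf21, the other hormone of the programme, was low and was not called. Its gene lies at chr7:45613890-45615490 on the minus strand. It had 0.321, 0.902, 0.473 and 0.523 CPM in KO 512, 513, 515 and 516, against 0.468, 0.399, 0.264 and 2.41 CPM in ctrl 511, 514, 517 and 518. Library ctrl 518 stood apart from the other 3 ctrl libraries, which lay within or just below the KO range. The counts were 8 to 24 in KO and 6 to 64 in ctrl libraries. The log2 fold change was -0.68 (SE 0.686, adjusted p = 0.467) with an interval of -2.23 to 0.86, which spans a fall and a rise. Without ctrl 518 it was 0.57 (adjusted p = 0.314), so the direction was set by that library.

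Set against each other, the log2 ratio of Gdf15 to Fgf21 was 2.45 ± 0.647 in KO and -0.68 ± 1.51 in ctrl libraries (SD, n = 4 each), with KO at 1.75 to 3.09 and ctrl at -2.92 to 0.25. This was 1 of 3 ratios compared, chosen after the values were seen. The exact permutation test over the 70 splits gave p = 0.0286, which is the smallest it can give, and 0.0857 after adjustment over the 3 ratios, two-sided. The difference did not pass the correction, and the libraries of both groups did not overlap. A ratio at the smallest possible p passes over 3 ratios only if another ratio also reaches it. The test therefore cannot decide here, and the ratio is given as a description.

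The receptors of both hormones were looked at in the same tissue, from a list of 7, of which 5 could be tested. In edgeR 0 rose and 1 fell, beside 15.4% of all genes higher and 18.9% lower (median log2 fold change 0.15, beside -0.01 for all genes). At an unadjusted p under 0.05, 1 was higher, and DESeq2 and limma-voom each called 0 higher. Gfral, the receptor of GDF15, was at 0 in all 8 libraries. Its co-receptor Ret averaged 3.79 ± 0.859 CPM in KO and 3.69 ± 0.796 CPM in ctrl libraries and was not called. Klb, the co-receptor that FGF21 requires, fell to 45.9 ± 6.29 CPM in KO, against 68.9 ± 13.2 CPM in ctrl libraries (log2 fold change -0.59, SE 0.146, edgeR adjusted p = 0.0146). That call was lost with library sizes alone (-0.39, adjusted p = 0.0726) and with the macrophage markers as a covariate (-0.44, adjusted p = 0.161). Fgfr1, the main FGF receptor of fat, averaged 110.0 ± 4.63 CPM in KO and 99.4 ± 5.80 CPM in ctrl libraries and was not called (log2 fold change 0.15, adjusted p = 0.108). Fgfr4 did not pass the filter, at 0.811 ± 0.452 CPM in KO and 0.223 ± 0.0672 CPM in ctrl libraries. Without the filter it was called higher, with a log2 fold change of 1.84 (adjusted p = 0.0154), and it also entered and was called when any of the 8 libraries was left out.

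Atf4, the central transcription factor of the response, lies at chr15:80255184-80257541 on the plus strand. It had 104.3, 139.3, 130.7 and 126.1 CPM in KO 512, 513, 515 and 516, against 144.9, 117.7, 87.9 and 141.0 CPM in ctrl 511, 514, 517 and 518. The KO libraries lay inside the ctrl range. The log2 fold change was 0.03 (SE 0.157, adjusted p = 0.914), and the fold interval given above includes no change. Its sign turned without KO 513 (-0.03) and without ctrl 517 (-0.11).

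Atf5, a close relative of Atf4 that is known to act in the mitochondrial unfolded protein response, was the gene that fell. It lies at chr7:44812256-44816658 on the minus strand. Atf5 had 150.6, 121.5, 120.0 and 126.0 CPM in KO 512, 513, 515 and 516, against 257.6, 182.7, 188.5 and 182.7 CPM in ctrl 511, 514, 517 and 518. Every KO library was below every ctrl library, and ctrl 511 stood above the other ctrl libraries. The mean was 129.5 ± 14.3 CPM in KO and 202.9 ± 36.6 CPM in ctrl libraries (SD, n = 4 each), a log2 fold change of -0.65 (SE 0.129, 95% interval -0.94 to -0.36, edgeR adjusted p = 0.00545). The counted transcript is annotated as noncoding and shares exons with the coding one, so their reads cannot be told apart, and 4.11% of its exon bases lie opposite exons of Il4i1 and Nup62. In the authors' deposited table the fold was 0.631 with an FDR of 0.000371. The log2 ratio of Atf5 to Atf4 was 0.05 ± 0.328 in KO and 0.73 ± 0.307 in ctrl libraries, a difference of -0.68 (exact permutation p = 0.0571, adjusted over 3 ratios 0.0857), which did not pass.

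Atf3, an early-induced repressor and activator of the same family, lies at chr1:191170297-191183333 on the minus strand. It had 3.53, 8.05, 11.9 and 5.68 CPM in KO 512, 513, 515 and 516, against 5.15, 2.91, 4.27 and 4.30 CPM in ctrl 511, 514, 517 and 518. KO 512 lay within the ctrl range and the other 3 KO libraries above it. The log2 fold change was 0.81 (SE 0.343, 95% interval 0.04 to 1.58), with an adjusted p of 0.0957 in edgeR, which did not pass. Without KO 512 it was 1.04 and passed (adjusted p = 0.0262), as it did in DESeq2 (0.82, adjusted p = 0.0476) and with library sizes alone (1.01, adjusted p = 0.0456). It did not pass under any other alternative. Without KO 515 it was 0.47 (edgeR adjusted p = 0.272). With the muscle markers as a covariate it was 0.60 (adjusted p = 0.357), and with the macrophage markers 0.43 (adjusted p = 0.564).

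Ddit3, which encodes the death-associated factor CHOP, lies at chr10:127290793-127296288 on the plus strand. It had 31.4, 39.3, 46.5 and 39.2 CPM in KO 512, 513, 515 and 516, against 38.5, 41.1, 33.7 and 21.9 CPM in ctrl 511, 514, 517 and 518. The groups overlapped, and ctrl 518 was the lowest of the 8. The log2 fold change was 0.21 (SE 0.191, adjusted p = 0.420), with a fold interval of 0.858 to 1.56. Of its exon bases, 4.01% lie opposite exons of Mars, and strand was not used in counting.

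Trib3, a pseudokinase that ATF4 and CHOP induce and that holds them back, lies at chr2:152337425-152344060 on the minus strand. It had 17.3, 13.9, 13.7 and 18.2 CPM in KO 512, 513, 515 and 516, against 14.1, 12.7, 10.0 and 9.69 CPM in ctrl 511, 514, 517 and 518. Only ctrl 511 reached into the KO range. The log2 fold change was 0.44 (SE 0.155, 95% interval 0.09 to 0.79, adjusted p = 0.0545), just outside the threshold. It passed without ctrl 511 (0.54, adjusted p = 0.0284), with relative log expression factors (0.45, adjusted p = 0.0464), upper quartile factors (0.54, adjusted p = 0.0273) and library sizes alone (0.64, adjusted p = 0.0093), and in DESeq2 (0.45, adjusted p = 0.0210). It did not pass under the other alternatives, in edgeR or limma-voom (adjusted p 0.0545 to 0.157).

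Chac1, which degrades glutathione and is a late target of ATF4 and ATF3, lies at chr2:119351242-119354327 on the plus strand. It had 11.8, 9.48, 3.31 and 7.03 CPM in KO 512, 513, 515 and 516, against 2.18, 1.84, 3.70 and 3.77 CPM in ctrl 511, 514, 517 and 518. KO 515 lay below ctrl 517 and 518, and the other 3 KO libraries lay above all ctrl libraries. The mean was 7.90 ± 3.62 CPM in KO and 2.87 ± 1.01 CPM in ctrl libraries (SD, n = 4 each), a log2 fold change of 1.46 (SE 0.388, 95% interval 0.58 to 2.34, edgeR adjusted p = 0.0190). In the authors' deposited table the fold was 2.70 with an FDR of 0.000840. The call was lost without KO 513 (1.36, adjusted p = 0.0523), in limma-voom with sample weights (1.35, adjusted p = 0.0836) and with the macrophage markers as a covariate (1.40, SE 0.523, adjusted p = 0.104). With the summed skeletal muscle markers as a covariate the log2 fold change was 0.96 (SE 0.465, adjusted p = 0.167). Every KO library was above every ctrl library in that sum, so the covariate cannot be told apart from KO here. The part of muscle content in the Chac1 rise was not tested. As log2 ratios to the ctrl mean, the summed muscle markers were 2.12, 1.53, 1.37 and 1.01 in KO 512, 513, 515 and 516, against 0.26, -3.76, 0.02 and 0.78 in ctrl 511, 514, 517 and 518. Those of Chac1 were 2.04, 1.72, 0.21 and 1.29 in the same KO libraries, against -0.40, -0.65, 0.37 and 0.39 in the same ctrl libraries.

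Asns, asparagine synthetase and a standard target of ATF4 in amino acid shortage, lies at chr6:7675171-7693182 on the minus strand. It had 88.5, 75.5, 86.1 and 77.4 CPM in KO 512, 513, 515 and 516, against 83.7, 99.5, 79.2 and 89.0 CPM in ctrl 511, 514, 517 and 518. The groups overlapped. The log2 fold change was -0.10 (SE 0.0885, adjusted p = 0.399), with the narrowest interval of the 9. The log2 ratio of Chac1 to Asns was -3.51 ± 0.823 in KO and -4.99 ± 0.622 in ctrl libraries, a difference of 1.48 (exact permutation p = 0.0857, and the same after adjustment over 3 ratios), which did not pass.

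**Figure D3:**
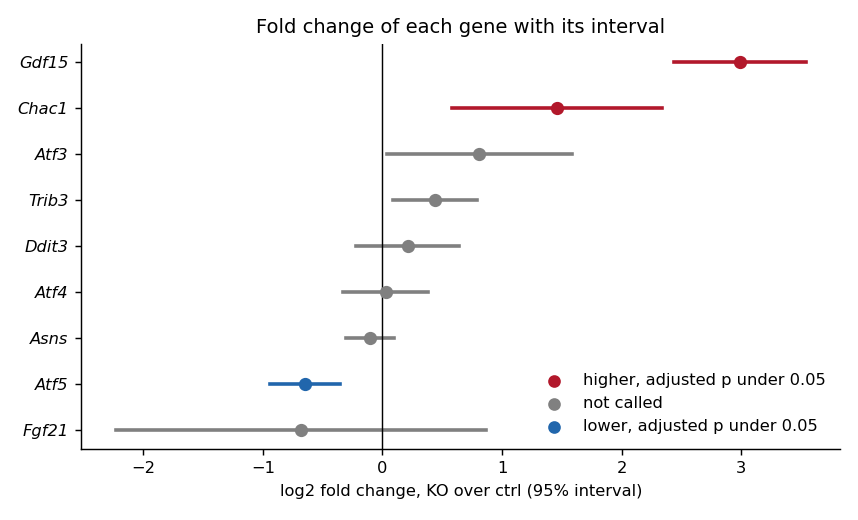
Log2 fold change of each of the 9 genes, KO over ctrl, with its 95% interval (x axis), ordered by size. Red and blue mark an adjusted p under 0.05 in edgeR. The intervals of Gdf15 (2.44 to 3.54), Chac1 and Atf5 exclude 0 and are called, those of Atf3 and Trib3 exclude 0 without a call, and that of Fgf21 is the widest (-2.23 to 0.86).

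The values of each library are set side by side here as a description, with no test. Among the KO libraries Chac1 ran 512, 513, 516, 515 from high to low, and Atf3, which was not called, ran 515, 513, 516, 512. Gdf15 was highest in KO 515, where Chac1 was at its lowest. Relative to the ctrl mean, KO 515 had a log2 ratio of 3.31 for Gdf15, 1.52 for Atf3 and 0.21 for Chac1, and KO 512 had 2.97 for Gdf15, -0.24 for Atf3 and 2.04 for Chac1. Ctrl 518, high in Fgf21 at 1.45, was low in Ddit3 at -0.63.

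**Figure D4:**
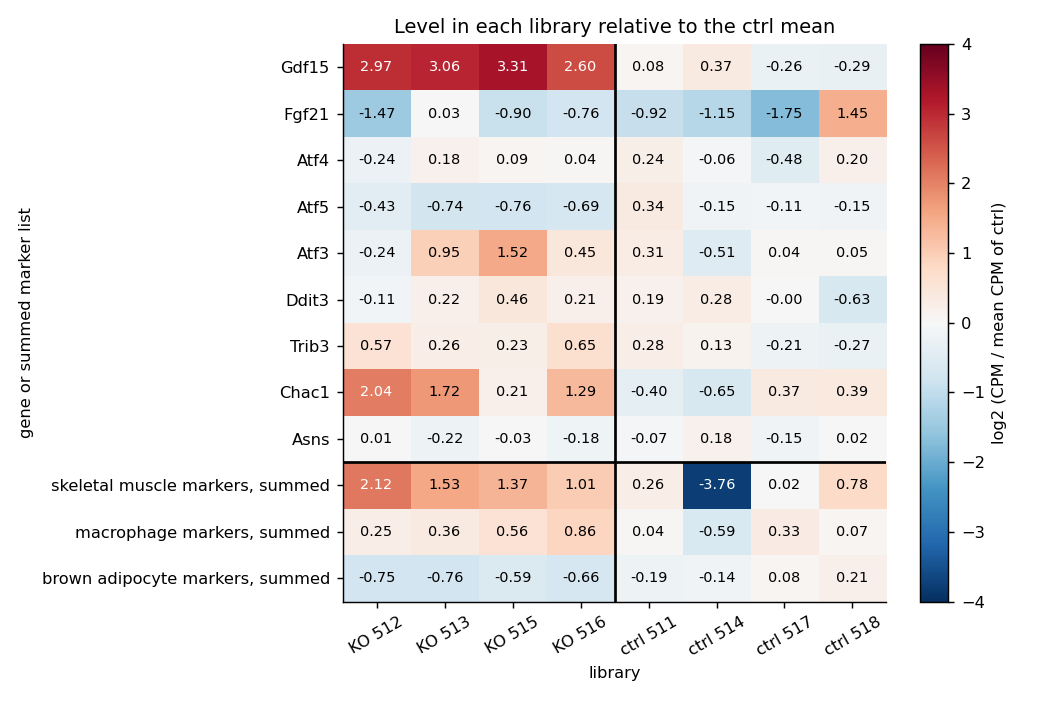
Log2 of the CPM over the ctrl mean for the 9 genes and for 3 summed marker lists (rows) in the 4 KO and 4 ctrl libraries (columns), with red above and blue below the ctrl mean. Gdf15 is 2.60 to 3.31 in every KO library, and Chac1 and Atf3 peak in different KO libraries. The skeletal muscle sum is -3.76 in ctrl 514.

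Levels between genes were compared per length, as RPKM (CPM per kilobase of counted transcript). In KO libraries Atf4 at 72.8 ± 8.66 RPKM and Atf5 at 71.5 ± 7.89 RPKM led, and differed by less than their SD. Ddit3 at 45.4 ± 7.18 RPKM and Asns at 43.0 ± 3.34 RPKM followed, also within their SD of each other. Trib3 at 7.73 ± 1.14, Chac1 at 5.06 ± 2.32, Atf3 at 3.71 ± 1.83 and Gdf15 at 2.75 ± 0.545 RPKM were lower, each neighbouring pair from Chac1 down within an SD, and Fgf21 was last at 0.590 ± 0.263 RPKM. In ctrl libraries Atf5 led at 112.0 ± 20.2 RPKM, ahead of Atf4 at 71.5 ± 15.3 RPKM. Asns at 46.2 ± 4.60 and Ddit3 at 39.2 ± 9.90 RPKM lay within an SD. Trib3 was at 5.70 ± 1.04, Atf3 at 2.11 ± 0.469, Chac1 at 1.84 ± 0.644, Fgf21 at 0.942 ± 1.09 and Gdf15 last at 0.343 ± 0.0771 RPKM, and from Atf3 down each lay within an SD of the next. Gdf15 in KO tissue thus remained a low transcript per length, at a level below Trib3.

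Upstream of Atf4, the list of eIF2alpha kinases, phosphatases and eIF2B subunits had 17 genes tested, of which 2 rose and 6 fell (median log2 fold change -0.16, beside -0.01 for all genes). Among all tested genes 15.4% were higher and 18.9% lower. The rises are thus no larger a share than the background, and the falls, under TMM factors, are a larger one. Eif2ak3, which encodes the endoplasmic reticulum kinase PERK, rose to 35.0 ± 1.14 CPM in KO, against 25.6 ± 2.97 CPM in ctrl libraries (log2 fold change 0.45, edgeR adjusted p = 0.00572). Eif2ak1, the haem-regulated kinase HRI that also relays mitochondrial stress, fell to 53.0 ± 1.37 CPM in KO, against 66.9 ± 6.05 CPM in ctrl libraries (-0.34, adjusted p = 0.00917). PKR (Eif2ak2) and GCN2 (Eif2ak4) had log2 fold changes of -0.06 and -0.00014 and were not called. Ppp1r15a, encoding GADD34, the stress-induced subunit that dephosphorylates eIF2alpha, rose to 39.4 ± 7.59 CPM in KO, against 21.9 ± 5.68 CPM in ctrl libraries (0.85, adjusted p = 0.0126). Its constitutive counterpart Ppp1r15b was not called (-0.16, adjusted p = 0.336). Ppp1ca, the catalytic subunit, fell (-0.38), as did Eif2s1, the gene of eIF2alpha (-0.31), and the eIF2B subunits Eif2b1 (-0.38), Eif2b4 (-0.30) and Eif2b5 (-0.25). The call of Eif2s1 was lost without any of the 4 KO libraries or ctrl 518 (adjusted p 0.0525 to 0.0883), and that of Eif2b5 without KO 512, 513 or 516 or ctrl 518 (adjusted p 0.0509 to 0.0683). The falls depended on scaling and on the covariates, with 3 calls under upper quartile factors and 1 under library sizes alone, 1 with the muscle and 1 with the macrophage markers as a covariate. The rise of Ppp1r15a was not called with the macrophage markers as a covariate (1.01, edgeR adjusted p = 0.0558).

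Downstream, the list of ATF4 target genes other than those above had 34 genes, of which 32 were tested, 9 rose and 9 fell (median log2 fold change 0.17), beside 15.4% and 18.9% of all genes. Phgdh, which opens serine synthesis, rose to 19.8 ± 1.30 CPM in KO, against 3.54 ± 1.90 CPM in ctrl libraries (log2 fold change 2.47, SE 0.327, edgeR adjusted p = 0.000855). Of its pathway partners, Psat1 was not called (0.30, SE 0.302, adjusted p = 0.468), which does not exclude a rise. Psph fell (-0.72, adjusted p = 0.00206), and both are named after their values were seen. Aldh18a1, of proline synthesis, rose to 16.1 ± 3.58 CPM in KO, against 5.20 ± 0.745 CPM in ctrl libraries (1.63, adjusted p = 0.000411). Got1, the cytosolic aspartate aminotransferase, rose to 107.1 ± 15.2 CPM in KO, against 41.8 ± 7.22 CPM in ctrl libraries (1.36, adjusted p = 0.000372), and the stress-induced chromatin protein gene Nupr1 rose with 0.47 (adjusted p = 0.00205). The other 5 that rose were the amino acid transporters Slc7a5 (0.997), Slc7a1 (0.87) and Slc6a9 (0.68) and the mitochondrial folate enzymes Aldh1l2 (1.08) and Mthfd2 (0.79), named after their values were seen.

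Of the targets that fell, Gars, glycyl-tRNA synthetase, fell to 143.2 ± 3.76 CPM in KO, against 208.2 ± 15.3 CPM in ctrl libraries (log2 fold change -0.54, edgeR adjusted p = 0.000734). Aars, alanyl-tRNA synthetase, fell by 0.50 on the log2 scale (adjusted p = 0.00156), Xpot, a tRNA exporter, by 0.48 (adjusted p = 0.00139), and Eif4ebp1, a repressor of cap-dependent translation, by 0.56 (adjusted p = 0.000777). Nars (-0.31) and Wars (-0.26), of the same enzyme class, Cth of cysteine synthesis (-0.96), Psph and the bZIP gene Cebpg (-0.24) were the others. Sars was not called (-0.18, adjusted p = 0.0615). The calls were 5 lower with library sizes alone. Sesn2 and Ddit4, further common reporters of ATF4, were not called (-0.02 and 0.72, adjusted p = 0.969 and 0.282).

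Of the 28 other targets with a promoter window, 8 (28.6%) held TGATGNAA, beside 55.6% of the 9 genes above and 3.97% of all windows. Of these 8, 7 were tested, 2 rose and 2 fell (median log2 fold change 0.02). Of the 20 without it, 19 were tested, 5 rose and 3 fell (median 0.28). The remaining targets had no window and are outside this split, and all of them were called. Aldh1l2 and Slc7a5 were higher, and Cth, Eif4ebp1, Nars and Wars lower. Among the 9 genes, the element was held by Chac1, which rose, and by Fgf21, Atf3, Asns and Trib3, which were not called. Atf5 had a call without a match in its windows. Gdf15 also had a call and no match, but its windows do not cover the promoter of the counted transcript. No test was made of this split.

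The IRE1-XBP1 and ATF6 arms of the unfolded protein response, which share the PERK branch's trigger, had 29 genes tested, of which 2 rose and 6 fell (median log2 fold change -0.10), beside 15.4% of all genes higher and 18.9% lower, so that the share of falls is near the background and that of rises below it. Hspa5, the chaperone BiP and usual reporter of endoplasmic reticulum stress, averaged 444.2 ± 60.3 CPM in KO and 436.0 ± 30.7 CPM in ctrl libraries and was not called (0.03, adjusted p = 0.865). Derl3, of protein retrotranslocation, was low and rose to 1.03 ± 0.213 CPM in KO, against 0.384 ± 0.101 CPM in ctrl libraries (1.42, edgeR adjusted p = 0.00408), and its relative Derl1 fell to 161.3 ± 7.50 CPM in KO, against 299.3 ± 85.7 CPM in ctrl libraries (-0.89, adjusted p = 0.00546). The rise of Derl3 was not called with the macrophage markers as a covariate (1.07, adjusted p = 0.0663). The disulfide isomerase gene Pdia4 rose by 0.24 on the log2 scale (adjusted p = 0.0363), a call lost without KO 513, 515 or 516 or ctrl 511 or 514 (adjusted p = 0.0978, 0.0935, 0.0842, 0.0758 and 0.0692). The others that fell were Sec61b (-0.37), Mbtps1 (-0.28), Atf6 (-0.28), Derl2 (-0.25) and Dnajc3 (-0.22). The call of Atf6 was lost when any library other than ctrl 511 was left out (adjusted p 0.0588 to 0.116), and that of Dnajc3 when any other than ctrl 514 was (adjusted p 0.0539 to 0.101). Of those 6 falls, 2 were called under upper quartile factors and 1 under library sizes alone, and the list median was then 0.00 and 0.10.

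The mitochondrial list, of the proteases, chaperones and membrane proteins that sense or relay stress in the organelle, had 17 genes tested, of which 0 rose and 15 fell in edgeR (median log2 fold change -0.48), beside 18.9% of all genes lower. At an unadjusted p under 0.05, 0 were higher, and DESeq2 and limma-voom also called 0 higher. With library sizes alone the median was -0.28 and 9 were called lower. Hspe1 (-0.96) and Hspd1 (-0.60), chaperonins induced by the mitochondrial unfolded protein response, were among those that fell and are named after their values were seen. Phb fell to 48.4 ± 4.09 CPM in KO, against 75.0 ± 2.65 CPM in ctrl libraries, and Phb2 to 255.7 ± 10.4 CPM in KO, against 382.7 ± 19.7 CPM in ctrl libraries (log2 fold changes -0.63 and -0.58, edgeR adjusted p = 0.000524 and 0.000495). They encode the prohibitins of the inner membrane. Opa1, which shapes the cristae and is cut by OMA1, fell by 0.53 (adjusted p = 0.000587), and Dnaja3, a mitochondrial co-chaperone, fell by 0.57 (adjusted p = 0.000484). Oma1, the protease that starts the relay to HRI, averaged 16.5 ± 0.392 CPM in KO and 17.3 ± 0.239 CPM in ctrl libraries and was not called (-0.07, adjusted p = 0.458), nor was Htra2 (-0.16, adjusted p = 0.155). The summed brown adipocyte markers, a sum carried largely by Fabp4 and Ucp1, were lower in the same libraries. Their part in these falls was not tested.

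The last list, of bZIP partners and regulators of ATF4 and CHOP, had 22 genes tested, of which 5 rose and 1 fell (median log2 fold change 0.04), beside 15.4% of all genes higher and 18.9% lower. Fos, an immediate-early partner of the family, rose to 7.79 ± 3.40 CPM in KO, against 2.16 ± 0.403 CPM in ctrl libraries (log2 fold change 1.85, SE 0.321, edgeR adjusted p = 0.00293). Junb (0.84, adjusted p = 0.0102), Cebpd (0.68, adjusted p = 0.0330), Maf (0.71, adjusted p = 0.0366) and Jun (0.44, adjusted p = 0.0427) also rose. Cebpg, an ATF4 partner, fell by 0.24 (adjusted p = 0.0487). That call was lost under relative log expression factors, upper quartile factors, library sizes alone, no filter, limma-voom and the muscle covariate (adjusted p = 0.0579, 0.244, 0.763, 0.0519, 0.0710 and 0.0713), and when any library other than ctrl 514 was left out (adjusted p 0.0672 to 0.111). Leaving out single libraries also ended the calls of Cebpd (each but KO 515 and ctrl 511, adjusted p 0.0612 to 0.0930), Maf (KO 512, 515 or 516 or ctrl 517, adjusted p 0.0756 to 0.0872) and Jun (KO 512 or 515 or ctrl 511 or 518, adjusted p 0.0778 to 0.114). The ATF4 partner Cebpb was not called (0.23, adjusted p = 0.416). The rises numbered 2 without KO 512, 3 without KO 515 or 516 or ctrl 517 or 518, and 2 with either the muscle or the macrophage markers as a covariate. Of the 10 macrophage markers 4 were called higher in KO, and their summed levels overlapped between the groups, as given above. Their part in the rises was not otherwise tested.

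**Figure D5:**
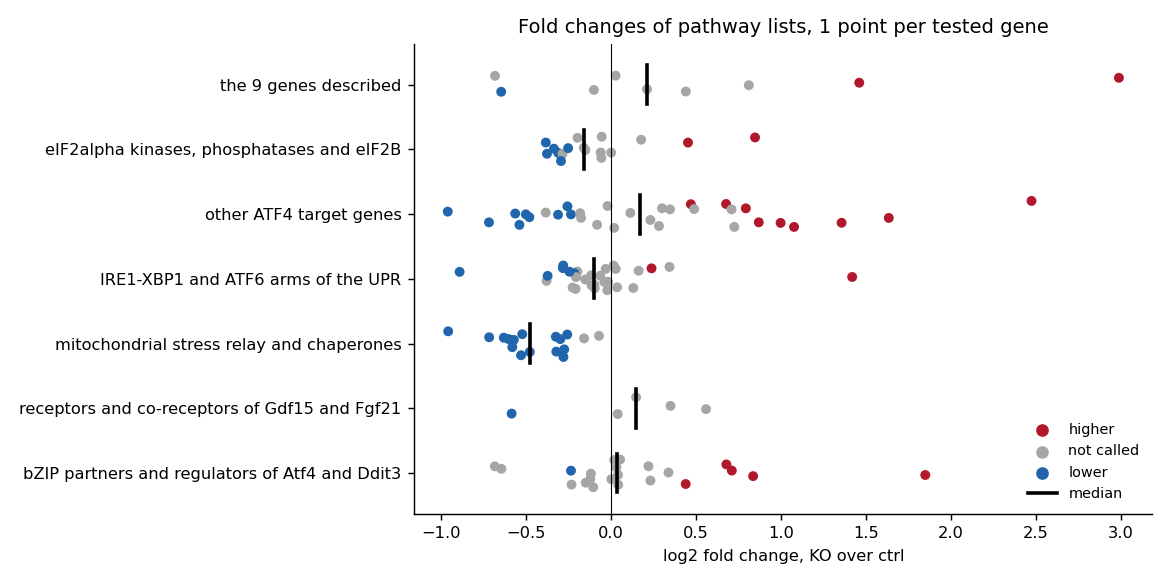
Log2 fold change, KO over ctrl (x axis), of every tested gene of the 9 stress genes and of 6 lists of the surrounding pathway, with black bars at the medians and red and blue points for genes called higher and lower. Under TMM factors the mitochondrial list lies below 0 with a median of -0.48. The other ATF4 targets spread to both sides, with 9 called higher and 9 lower.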

How the data were processed

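Per the labels' protocols, brown fat RNA was isolated with Trizol and run by the Illumina protocol. TopHat 2 aligned the reads to mm10, and HOMER, edgeR and DESeq 1.8.3 were also named, per the submitters' processing notes. The estimated counts deposited by the authors came from HOMER over RefSeq exons on both strands without adjustment, per the file headers, so reads of overlapping genes on opposite strands cannot be told apart. They are multiples of 0.5, with 36.9% not whole, and were rounded. The authors' second table, per the file headers, gives counts scaled to equal totals (a signal), a fold (ratio, KO over ctrl), a p-value and FDR, and log2 values. It was used only where named.

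The count table has 30521 transcript rows. The 829 rows with no gene symbol, 0.0608% to 0.0824% of the counts of a library, were left out, and the row with the highest total stood for each symbol. Genes were filtered with filterByExpr (minimum count 10), which left 14178, and tested with edgeR 4.0.16 in R 4.3.3 (TMM, quasi-likelihood, two-sided, Benjamini-Hochberg over all genes, threshold 0.05) on all 8 libraries without covariates. The SE is the log2 fold change over the square root of F. Correlations of log2 CPM were 0.985 to 0.991 within KO and 0.963 to 0.981 within ctrl libraries, and pairs differed by a chi-square over its degrees of freedom of at least 12.95 in KO and 53.1 in ctrl libraries, more than sampling noise. Ratios of genes were taken with a pseudocount of 0.5 and tested by exact permutation.

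Alternatives were other scaling factors, no filter, the longest transcript, DESeq2 1.42.0, limma-voom (limma 3.58.1), leaving out each library and, added after seeing the data, marker covariates. The muscle sums of the groups did not overlap, so that covariate cannot be told apart from KO. The test was also run on counts simulated from its own fitted means and dispersions, which checks the code and not its fit to these libraries. The genes and lists were chosen with earlier results of these data known. Genes named from a list are all those called, or the 4 higher and 4 lower with the smallest p where more than 8 were called, and others are said to be picked later. Of the list entries, Dele1 and Adgre1 had no row under that symbol. Promoter sequences are from RefSeq (GRCm38.p6).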

Additional observations from a re-analysis of the deposited data

Results flagged for a closer look

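The screen covered the 9 stress genes, Kdm1a and the list genes picked by the naming rule given above. List genes named in the text beyond that rule were not screened. In all, 90 groups of 4 libraries were searched for a library far from the other 3. The measure was the gap to its neighbour over the range of the group, above Dixon's critical value, which chance exceeds in about 1 in 20 groups. There were 5 such libraries. Fgf21 was 2.41 CPM in ctrl 518, against 0.264 to 0.468 CPM in the other ctrl libraries. Atf5 was 257.6 CPM in ctrl 511, against 182.7 to 188.5 CPM in the others, and it was still called without that library. Eif2b5 was 91.97 CPM in ctrl 518, with the nearest ctrl library at 78.2 CPM. Phb was 54.4 CPM in KO 516, with the nearest KO library at 47.2 CPM. Cebpg was 83.7 CPM in KO 512, with the nearest KO library at 98.5 CPM.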

How the results depend on the processing

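No paired analysis was possible because the KO and ctrl libraries share no replicate number. Gdf15 (log2 fold change 2.87 to 3.35, adjusted p 1.27e-16 to 0.00157) and Atf5 (-0.76 to -0.45, adjusted p 5.28e-05 to 0.0495) kept their calls under all 17 alternatives, and Ddit3, Fgf21, Atf4 and Asns were not called under any. For each of the 9 genes the longest transcript was the row already used, so that alternative left their counts unchanged. Of the 9 genes, those called higher numbered 4 with library sizes alone, 4 in DESeq2, and 1 in limma-voom and with either covariate. Sign changes of genes without a call were Fgf21 0.21 in limma-voom and 0.57 without ctrl 518 (range -1.02 to 0.57 leaving out each library), Atf4 -0.03 without KO 513, -0.11 without ctrl 517 (range -0.11 to 0.12) and -0.020 with the muscle covariate, and Asns 0.00056 under upper quartile factors, 0.094 with library sizes alone and 0.061 with the macrophage covariate. Calls over all genes higher and lower were 4077 and 930 with library sizes alone, 1445 higher with the muscle covariate, 995 and 1377 with the macrophage covariate, and 1625 lower under upper quartile factors.

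With library sizes alone the lists had 1 fall for eIF2alpha (median 0.043), 5 for other ATF4 targets, 1 for the IRE1-XBP1 and ATF6 arms (median 0.10), 9 for mitochondria, 2 rises and 0 falls for receptors, and 8 rises and 0 falls for bZIP partners. Under upper quartile factors they had 3 falls for eIF2alpha, 2 for the IRE1-XBP1 and ATF6 arms (median 0.0043), 1 rise for receptors and 0 falls for bZIP partners. Without a filter, the IRE1-XBP1 and ATF6 arms had 1 rise and receptors 1. The bZIP list had 0 falls under relative log expression factors, 4 in DESeq2, and 3 rises and 0 falls in limma-voom. With the muscle covariate there was 1 fall for eIF2alpha, 1 rise and 2 falls for the IRE1-XBP1 and ATF6 arms, and 2 rises and 0 falls for bZIP partners. With the macrophage covariate there was 1 rise and 1 fall for eIF2alpha, 0 rises and 2 falls for the IRE1-XBP1 and ATF6 arms, 0 falls for receptors and 2 rises for bZIP partners. The causes were not tested.

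Leaving out each library in turn gave 1527 to 2260 genes higher and 1900 to 2655 lower, 1 to 3 of the 9 genes higher and 1 lower. The lists ranged from 1 to 2 rises for the IRE1-XBP1 and ATF6 arms, 1 to 2 for receptors (Fgfr4 passing the filter when a library is left out), and 2 to 4 rises and 0 to 2 falls for bZIP partners. The counts of Fgf21 (6 to 64) and of Gdf15 in ctrl libraries (7 to 12) limit the precision of their levels.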
